A study of Mus musculus with 22 samples.

Results

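The mast cell gene set holds 10 genes, chosen by symbol for their role in mast cells and matched to the Ensembl mouse identifiers of the deposited count tables, out of 52636 genes listed there. It consists of the granule proteases Tpsb2, Tpsab1, Cpa3, Cma1 and Mcpt4, the IgE receptor chains Fcer1a and Ms4a2, the stem cell factor receptor Kit, the histamine enzyme Hdc and the transcription factor Gata2. Levels were followed in 22 bulk RNA-seq libraries from mice, in 6 groups: dissected renal capsule, the thin connective tissue sheath of the kidney, from young (n = 3) and aged (n = 3) mice, macrophages of the renal capsule (n = 4), macrophages of the kidney (n = 4), and libraries titled RCAMs from young (n = 4) and aged (n = 4) mice. The labels give no treatment, no strain, no age in weeks or months and no age at all for the capsule and kidney macrophages. They do not spell out RCAMs and call those libraries whole tissue, while the study's design text describes capsules that were either taken whole or sorted by flow cytometry for macrophages. The 15 macrophage markers listed for the check summed to 42092 to 44542 CPM (counts of a gene scaled to a common library total, counts-per-million) in the young and 41743 to 46744 CPM in the aged RCAM libraries, against 2347 to 12180 CPM in capsule tissue and 30927 to 42105 CPM in the sorted macrophages, so on these markers the RCAM libraries stood with the sorted ones. Library totals ran from 20586795 to 54421764 counts. Nothing in the labels says that replicates were separate animals, so a p-value here reflects library-to-library spread, and that spread may be technical. The labels name a standard and a low-input library kit for all samples without saying which library had which, and no batch or date.

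Mast cells are tissue-resident immune cells that keep histamine, heparin and serine and carboxypeptidase-type proteases in granules and release them when allergen cross-links IgE on the high-affinity receptor. They depend on stem cell factor acting through Kit, and their lineage is set up with the help of GATA2. Mast cells of connective tissue carry a protease set of tryptase, the chymase-type enzymes and carboxypeptidase A3, and connective tissue sheaths are a common site for them. Kit, Hdc and Gata2 are also made by other cells, among them endothelium for Kit and Gata2 and basophils for Hdc and Gata2. Fcer1a and Ms4a2 are not particular to mast cells either, and stand in the basophil list used below. In bulk libraries, fewer mast cells and less RNA per mast cell cannot be told apart.

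The genes lie on 8 chromosomes (GRCm38 coordinates of GENCODE gene models). The tryptases are neighbours on chromosome 17, Tpsab1 at 25343245 to 25345562 on the minus strand and Tpsb2 at 25366305 to 25369098 on the plus strand. The chymases Cma1 (55941451 to 55944675) and Mcpt4 (56059629 to 56062313) lie on the minus strand of chromosome 14. Cpa3 spans 20215620 to 20242181 on chromosome 3, Fcer1a spans 173221284 to 173227214 on chromosome 1, and Ms4a2 spans 11615523 to 11623719 on chromosome 19, all on the minus strand. Kit spans 75574916 to 75656722 on chromosome 5 and Gata2 spans 88193891 to 88207032 on chromosome 6, both on the plus strand, and Hdc spans 126593667 to 126619299 on chromosome 2 on the minus strand. Tryptases, and likewise chymases, are similar paralogs within multigene families, and how the authors counted reads shared between paralogs is not given in the sources used here, so the split within each family is uncertain.

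Because GATA2 is a member and binds GATA letters, the 250 bases before the start of each member were searched on both strands for the letters GATA preceded by A or T and followed by A or G, in the RefSeq promoter table (GRCm38.p6), which matched 8 of the 10 members. These letters were present in 6 of the 8, Cpa3, Cma1, Mcpt4, Fcer1a, Ms4a2 and Hdc, and in 26.54% of all 32851 promoters of the table. They were not in the windows of Kit and Gata2. CANNTG, the E-box, was in 4 of the 8 members and in 66.22% of all promoters. The shares of all promoters count every window, while the members were counted by gene. The 8 members have 10 windows, since Kit and Gata2 have 2 each. By window, the GATA letters were in 6 of the 10 and the E-box in 4. The windows of the 3 matched proteases and of both IgE receptor chains are shown 5′ to 3′ on the gene's strand, because these 5 hold the letters and encode the granule enzymes and the IgE receptor, with the GATA letters, or their reverse complement, in capitals. They are chr3:20242182-20242431 (Cpa3), chr14:55944676-55944925 (Cma1), chr14:56062311-56062560 (Mcpt4), chr1:173227230-173227479 (Fcer1a) and chr19:11623720-11623969 (Ms4a2), all on the minus strand.
Cpa3: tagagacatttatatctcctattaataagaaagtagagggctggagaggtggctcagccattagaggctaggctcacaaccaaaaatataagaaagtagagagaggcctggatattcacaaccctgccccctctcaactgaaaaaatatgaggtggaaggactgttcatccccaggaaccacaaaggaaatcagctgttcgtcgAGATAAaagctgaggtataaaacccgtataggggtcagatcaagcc
Cma1: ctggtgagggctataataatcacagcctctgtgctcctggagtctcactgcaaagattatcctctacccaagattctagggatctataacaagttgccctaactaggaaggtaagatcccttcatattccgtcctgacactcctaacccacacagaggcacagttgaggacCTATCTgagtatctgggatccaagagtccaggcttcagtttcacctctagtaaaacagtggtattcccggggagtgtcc
Mcpt4: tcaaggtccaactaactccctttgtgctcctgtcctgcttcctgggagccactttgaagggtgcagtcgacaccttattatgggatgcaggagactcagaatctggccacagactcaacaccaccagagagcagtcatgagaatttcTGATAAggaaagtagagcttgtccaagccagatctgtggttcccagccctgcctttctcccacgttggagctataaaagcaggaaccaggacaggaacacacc
Fcer1a: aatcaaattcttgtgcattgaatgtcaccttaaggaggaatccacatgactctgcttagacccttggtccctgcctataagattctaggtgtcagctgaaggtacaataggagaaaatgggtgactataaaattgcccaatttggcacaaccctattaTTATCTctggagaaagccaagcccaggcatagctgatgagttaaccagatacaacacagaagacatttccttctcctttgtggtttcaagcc
Ms4a2: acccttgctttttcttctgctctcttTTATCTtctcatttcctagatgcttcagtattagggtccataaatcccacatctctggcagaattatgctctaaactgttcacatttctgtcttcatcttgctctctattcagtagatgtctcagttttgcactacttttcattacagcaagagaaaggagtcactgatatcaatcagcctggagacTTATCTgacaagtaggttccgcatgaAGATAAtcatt
The match begins 46 bases before the start of Cpa3, 79 before that of Cma1, 103 before that of Mcpt4 and 92 before that of Fcer1a, and Ms4a2 holds 3, at 224, 37 and 11 bases. A match of letters is a description and not a measured binding site.

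Capsule tissue held the transcripts of a connective tissue type of mast cell, with 4 proteases far above the other members. Per kb of exon, which allows levels of different genes to be compared, Mcpt4 reached 34.6 ± 17.1 CPM per kb (SD, n = 6 capsule tissue libraries), Cma1 24.7 ± 13.6, Cpa3 24.3 ± 13.1 and Tpsb2 23.3 ± 10.7. The SDs of these 4 overlapped, but all 4 were measured in the same libraries. Mcpt4 was above Cpa3 and Tpsb2 in every capsule tissue library. It was above Cma1 in all but aged replicate 2 (33.6 against 36.1 CPM per kb). This order was not tested. Fcer1a followed at 4.27 ± 3.25 CPM per kb, then Gata2 at 1.86 ± 0.571 and Kit at 1.62 ± 0.399, which overlapped each other. Hdc stood at 0.807 ± 0.315 CPM per kb, Ms4a2 at 0.249 ± 0.156 and Tpsab1 at 0.241 ± 0.174. Of other mast cell protease genes, Mcpt1 and Mcpt9 were at 0 counts in all 22 libraries, and Mcpt2 was detected in aged capsule replicate 2 (0.0535 CPM) and aged RCAM replicate 4 (0.240 CPM) and in no other library. The tryptase gene Tpsg1 was at 0.534, 0 and 0.135 CPM in young and 0.648, 1.258 and 1.255 CPM in aged capsule. Cma2 did not exceed 0.0268 CPM and Ctsg 0.278 CPM in capsule tissue. In capsule tissue the basophil protease Mcpt8 did not exceed 0.664 CPM. The basophil protease Prss34 was at 0.243, 0.564 and 1.53 CPM in the young and 0.833, 0.669 and 1.66 CPM in the aged capsule libraries, a range like that of Mrgprb2, given next. The connective tissue mast cell receptor Mrgprb2 was at 0.534, 0.752 and 0.766 CPM in the young and 1.25, 0.991 and 1.70 CPM in the aged capsule libraries.

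**Figure D1:**
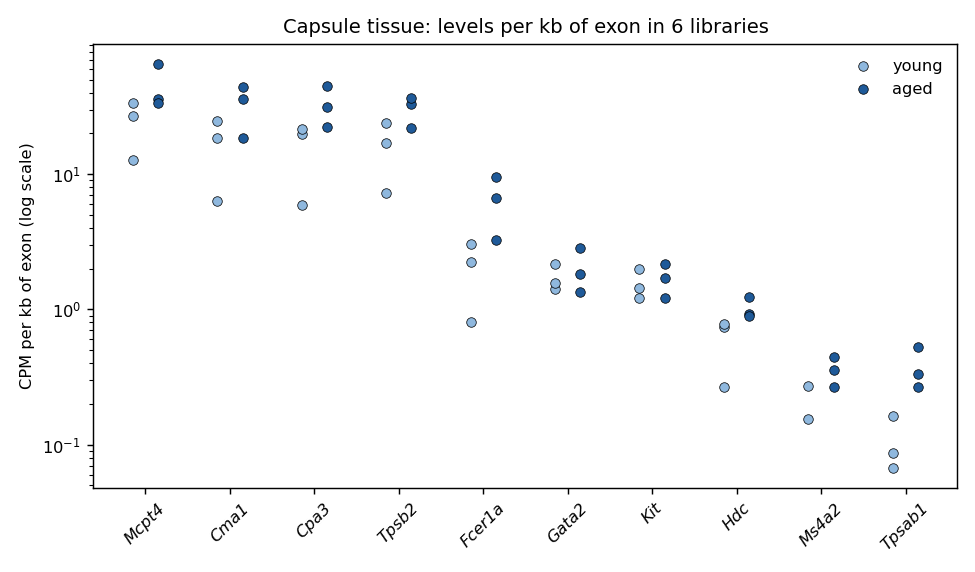
Level of each member per kb of exon (log axis) in the 3 young and 3 aged capsule tissue libraries, each point a library; the young library with no Ms4a2 count is not drawn. Mcpt4, Cma1, Cpa3 and Tpsb2 form the upper band, and Ms4a2 and Tpsab1 are lowest.

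The first comparison asked how the capsule changes with age in whole tissue. All 10 members had a positive fitted log2 fold change in aged against young capsule, and none passed the adjusted p threshold of 0.05. Kit, at 0.01, turned negative under RLE scaling, and over the alternatives 8 to 10 members were positive, with Kit and Gata2 the ones that changed sign. The carboxypeptidase Cpa3, which trims peptides in the granule, was at 29.8, 9.02 and 32.6 CPM in young and 34.0, 47.4 and 68.5 CPM in aged capsule. Mcpt4, the main chymase of mouse connective tissue mast cells, was at 30.0, 14.0 and 36.9 CPM in young and 39.6, 37.3 and 72.1 CPM in aged capsule. In both genes the aged libraries lay above the young ones on this scale, by a narrow margin, and young replicate 2 was the lowest library. The log2 fold change was 0.98 ± 0.46 (SE; adjusted p = 0.257) for Cpa3 and 0.79 ± 0.39 (adjusted p = 0.281) for Mcpt4.

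The tryptase Tpsb2 was at 26.9, 11.7 and 38.1 CPM in young and 34.9, 53.1 and 57.9 CPM in aged capsule, and the groups overlapped (0.83 ± 0.41, adjusted p = 0.269). The chymase Cma1 was at 20.1, 6.95 and 26.8 CPM in young and 20.2, 39.4 and 48.2 CPM in aged capsule, again with overlap (0.92 ± 0.50, adjusted p = 0.317). The second tryptase, Tpsab1, had only 7, 3 and 4 counts in young and 30, 21 and 30 counts in aged capsule. Its aged libraries were all above the young ones and its log2 fold change was 1.72 ± 0.60 (adjusted p = 0.153). The low counts leave this value imprecise, and Tpsab1 passed the expression filter through the aged group alone, as did Ms4a2.

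Fcer1a, the chain of the receptor that binds IgE, was at 2.23, 0.799 and 3.02 CPM in young and 3.26, 6.69 and 9.56 CPM in aged capsule. The aged libraries were above the young ones and the log2 fold change was 1.60 ± 0.57 (adjusted p = 0.154). DESeq2 called this difference (adjusted p = 0.0397) and the other alternatives did not. Ms4a2, the receptor's signal-amplifying beta chain, had 9, 0 and 17 counts in young and 43, 28 and 34 counts in aged capsule (1.20 ± 0.90, adjusted p = 0.472).

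Kit, Gata2 and Hdc were not called either. Kit was at 12.9, 17.6 and 10.9 CPM in young and 15.2, 19.3 and 10.8 CPM in aged capsule, with a log2 fold change of 0.01 ± 0.29 (adjusted p = 0.993). Gata2 was at 7.58, 8.50 and 11.7 CPM in young and 15.4, 9.85 and 7.27 CPM in aged capsule (0.09 ± 0.30, adjusted p = 0.893). Hdc, which makes histamine from histidine, was at 4.76, 4.98 and 1.71 CPM in young and 5.88, 7.87 and 5.72 CPM in aged capsule (0.65 ± 0.42, adjusted p = 0.390). The ranges overlapped fully for Kit and Gata2, while for Hdc the aged libraries were above the young ones.

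In this comparison 0.239% of the 16350 genes tested were called in either direction (25 higher and 14 lower), against 0 of the 10 members; 2 members, Fcer1a and Tpsab1, had an unadjusted p under 0.05, as had 3685 genes. On unscaled CPM the groups did not overlap for 5 members, against 28.6% of all genes, and after TMM scaling for 1, Tpsab1, against 27% of all genes. The median log2 fold change of the members was 0.88 and that of all genes 0.03. Without young replicate 2 the members' median was 0.54, and without both replicate 2 libraries, which carry adrenal gland transcripts (12 marker genes summing to 176 and 5965 CPM, against 9.92 to 23.8 CPM in the other capsule libraries), it was 0.64. Proximal tubule transcripts also differed between the age groups, with 16 marker genes summing to 18747, 7266 and 28786 CPM in young and 2313, 1511 and 7065 CPM in aged capsule, and the part of such neighbouring tissue in the members' values was not tested.

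Other genes of the mast cell programme also had mostly positive values without calls. Of 25 further mast cell genes, 16 were tested and none was called, with a median log2 fold change of 0.73. Among them Hpgds, the prostaglandin D synthase that macrophages also express, had 1.98 ± 0.46 (adjusted p = 0.0878) and Mitf, a transcription factor mast cells need, 0.71 ± 0.24 (adjusted p = 0.148). Poln had −1.03 ± 0.38 and Enpp3 −0.89 ± 0.33 (adjusted p = 0.167 and 0.171). The 16 also held Cyp11a1, at 33.8 and 802 CPM in young and aged replicate 2, the libraries with adrenal transcripts. In the other capsule libraries Cyp11a1 was at 0.925 to 3.40 CPM. All 15 genes of IgE receptor signalling had positive values with 0 calls and a median of 0.84, among them the kinase gene Syk at 1.01 ± 0.26 and the phosphatase gene Inpp5d at 1.01 ± 0.25. These signalling genes are shared with macrophages, whose 14 tested markers had a median of 0.92, also with 0 calls. Kitl, which encodes stem cell factor, was at 62.8, 59.3 and 50.1 CPM in young and 96.0, 79.6 and 100.1 CPM in aged capsule (0.57 ± 0.17, adjusted p = 0.117). Of 8 basophil-list genes tested (4 of them members), of 15 granule and lipid mediator genes and of 12 endothelial genes, 0 were called, with medians of 0.38, 0.25 and 0.38.

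**Figure D2:**
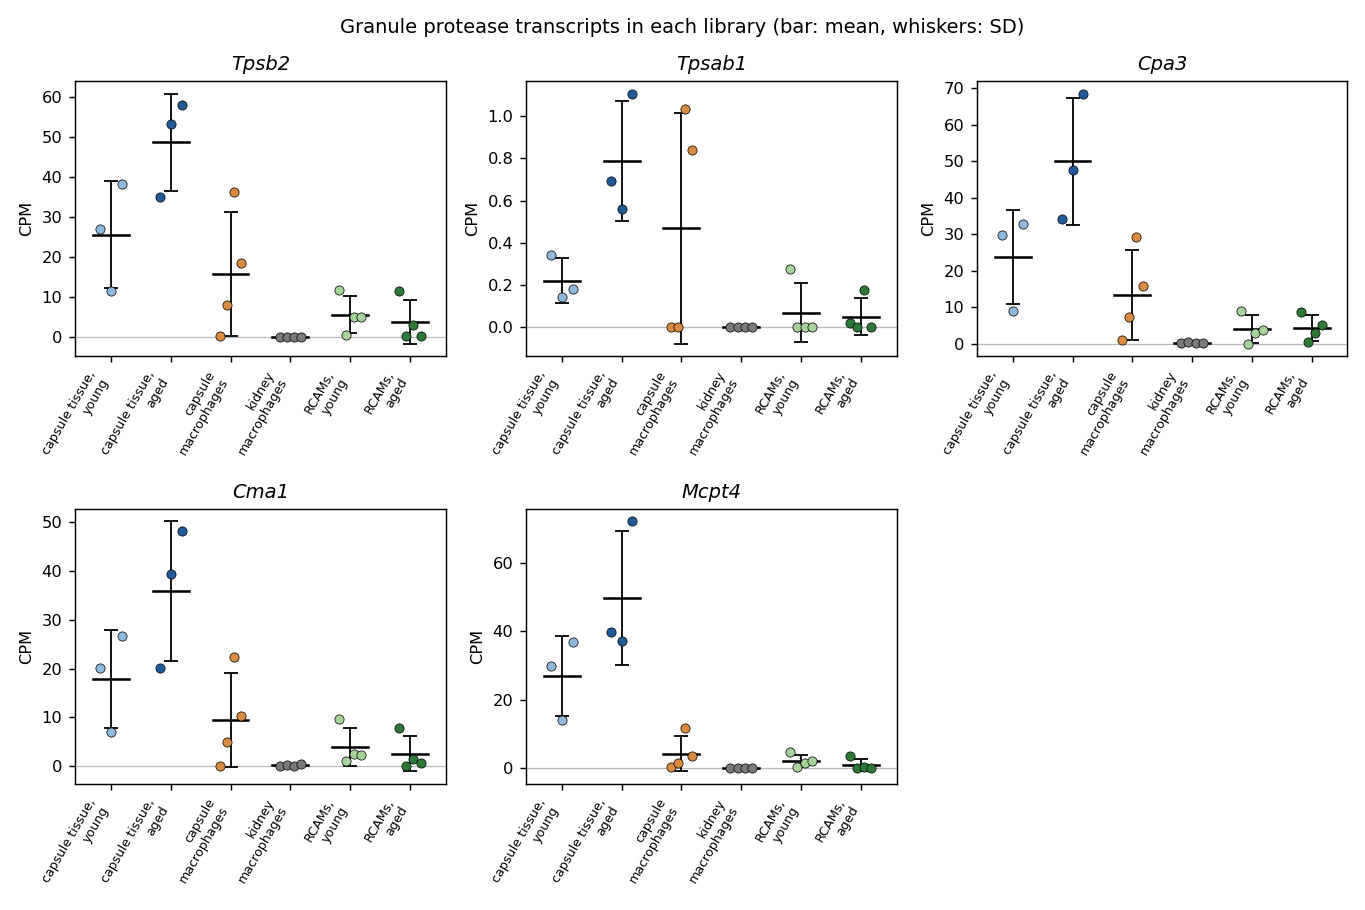
CPM of the 5 granule protease genes in each of the 22 libraries, by group, each point a library, with the mean and SD. By group mean, capsule tissue is highest for Tpsb2, Cpa3, Cma1 and Mcpt4. Replicate 3 of the capsule macrophages lies above some young capsule libraries for Tpsb2, Cpa3 and Cma1. The kidney macrophages lie at or near 0, and replicate 1 of the capsule macrophages lies near 0 as well.

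The second comparison set macrophages of the capsule against those of the kidney. Protease transcripts were found in all 4 capsule macrophage libraries, at a low level in replicate 1, and summed to between 2 and 35 counts in the kidney macrophage libraries. Tpsb2 was at 0.393, 7.94, 36.1 and 18.6 CPM in capsule macrophages and at 0 counts in all 4 kidney macrophage libraries. Mcpt4 was at 0.375, 1.63, 11.8 and 3.48 CPM in capsule macrophages and also at 0 counts in all 4 kidney macrophage libraries. A count of 0 over the 4 libraries of that group allows up to 0.0176 CPM (3 counts over the group; this limit covers counting error only). Against it Tpsb2 was at least 896-fold and Mcpt4 at least 245-fold higher in the mean of the capsule macrophages. The fit, which did not use this limit, gave an adjusted p of 0.00196 for Tpsb2 and 0.00167 for Mcpt4. Both genes, like Cpa3 below, passed the expression filter through the capsule group alone. Their entry into the test therefore depended on being high there, and limma-voom did not call Tpsb2. Tpsab1, at 0, 0, 1.03 and 0.839 CPM against 0 counts, was at least 26.6-fold higher in the mean, but did not pass the expression filter and was not tested.

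Cpa3 was at 0.918, 7.20, 29.3 and 15.8 CPM in capsule macrophages and 0.219, 0.510, 0.0628 and 0.221 CPM in kidney macrophages. The groups did not overlap on unscaled CPM, nor did they for 54.1% of all genes. The log2 fold change was 5.86 ± 0.98 (adjusted p = 0.000525). Cma1 was at 0.0936, 4.83, 22.4 and 10.3 CPM against 0.0657, 0.162, 0 and 0.481 CPM (5.79 ± 1.32, adjusted p = 0.00357), and capsule macrophage replicate 1 lay within the kidney range. That replicate held 95 protease counts in all, the others 876, 4673 and 1928. Within the group the proteases therefore differed by over 10-fold between libraries, while the 15 macrophage markers summed to 38271 to 42105 CPM.

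Kit was higher in capsule macrophages, at 12.3, 11.7, 17.7 and 21.2 CPM against 9.87, 12.9, 7.63 and 7.06 CPM in kidney macrophages (0.96 ± 0.25, adjusted p = 0.00809). The groups overlapped on this scale and did not after TMM scaling. Capsule macrophage replicates 1 and 2 were the lower ones for Kit, as for the proteases, and lay within the kidney range on this scale. The spread of Kit was narrower, with the highest capsule macrophage library at 1.82-fold the lowest, against 91.8-fold for Tpsb2. Hdc was at 4.14, 10.7, 11.7 and 3.87 CPM against 3.17, 5.19, 4.33 and 4.99 CPM (0.98 ± 0.38, adjusted p = 0.0497), and this call was lost in 11 of 15 alternatives (adjusted p between 0.0183 and 0.143 over them). Gata2 was at 1.76, 1.85, 4.24 and 1.45 CPM against 2.41, 4.08, 2.07 and 3.73 CPM, with overlap (−0.21 ± 0.40, adjusted p = 0.680). Fcer1a reached at most 0.646 CPM in capsule and 0.180 CPM in kidney macrophages, and Ms4a2 at most 0.0509 and 0.541 CPM, and neither passed the expression filter.

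Of the 7 members tested, 6 were higher in capsule macrophages and none was lower, and 27.3% of the 15701 genes tested were higher. Tpsb2, Cpa3 and Mcpt4 passed the expression filter through the capsule group alone, so their entry into this count depended on being high there. Limma-voom called 2, Kit and Mcpt4. Of 12 further mast cell genes tested, 6 were higher and 2 lower, with a median log2 fold change of 0.42 beside −0.03 for all genes. Of those 6, Mrgprb1, Maob and Gata1 likewise passed the filter through the capsule group alone. The mast cell receptor gene Mrgprb1 was at 0.412, 0.567, 2.35 and 1.12 CPM in capsule macrophages and at most 0.0464 CPM in kidney macrophages. Other genes of that list were at or near 0 in the capsule macrophages and did not pass the expression filter. Among them Mrgprb2 was at 0, 0.02465, 0 and 0 CPM, Tpsg1 at 0, 0, 0.151 and 0 CPM, and Gnaz at 0 in every library. Genes of other cell types moved in the same contrast: 11 of 11 fibroblast genes, 3 of 3 eosinophil genes tested and 3 of the 4 tested basophil-list genes that are no members (Il3ra, Il4 and Cd200r3) were higher. The basophil list also holds 4 members, among them Hdc, counted above. Ccr3, an eosinophil receptor gene, was at 55.5, 76.0, 169.0 and 42.5 CPM in capsule and 0.997 to 2.04 CPM in kidney macrophages. Siglecf, another eosinophil surface gene, was at 26.8, 26.3, 47.8 and 18.3 CPM against 1.08 to 3.04 CPM, and Il5ra at 4.23, 4.88, 15.6 and 2.16 CPM against 0 to 0.973 CPM. The eosinophil granule genes were low: Epx and Ear6 were at 0 counts in 3 of the 4 capsule macrophage libraries each, and Prg2 did not exceed 0.345 CPM there. Of the basophil genes, the cytokine gene Il4 was at 4.81, 5.23, 4.56 and 1.76 CPM in capsule and at most 0.126 CPM in kidney macrophages. The basophil protease gene Prss34 was at 0, 1.41, 2.63 and 0 CPM in capsule macrophages and Mcpt8 at most 0.0936 CPM. The part of these cell types in the members' values was not tested. Of the 15 genes of IgE receptor signalling 2 were higher and 8 lower, where 28.2% of all genes were lower, and Kitl was higher at 65.2 to 85.6 against 8.50 to 10.3 CPM (3.14 ± 0.11, adjusted p = 1.13e-08).

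The RCAM libraries carried the same proteases with a wide spread, and none of those tested was called between the ages. Tpsb2 was at 11.7, 0.522, 5.06 and 5.17 CPM in young and 11.6, 0.193, 3.05 and 0.370 CPM in aged RCAM libraries (−0.62 ± 1.11, adjusted p = 0.853). Cpa3 was at 9.04, 0.0201, 2.95 and 3.81 CPM in young and 8.66, 0.425, 2.78 and 5.07 CPM in aged (0.03 ± 1.05, adjusted p = 0.993). The groups overlapped throughout, with replicate 1 highest and replicate 2 lowest at both ages. Cma1 was at 9.67, 0.963, 2.42 and 2.36 CPM in young and 7.83, 0.0579, 1.53 and 0.653 CPM in aged (−0.69 ± 1.07, adjusted p = 0.8291). Mcpt4 was at 4.67, 0.381, 1.53 and 2.08 CPM in young and 3.57, 0, 0.445 and 0.261 CPM in aged (−1.08 ± 1.16, adjusted p = 0.726). With standard errors above 1 on the log2 scale, a difference of 2-fold would not be resolved here. Tpsb2, Cma1 and Mcpt4 passed the expression filter through the young group alone, and Cpa3 through the aged group alone. The direction of their values is limited by that entry.

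Kit was the exception. It was at 10.3, 10.3, 17.5 and 8.04 CPM in young and 27.0, 18.7, 22.6 and 29.1 CPM in aged RCAM libraries. All 4 aged libraries were above all 4 young ones on unscaled CPM, where the groups did not overlap, in either direction, for 11.5% of all genes. The log2 fold change of Kit was 1.06 ± 0.22 (adjusted p = 0.0249). It was the 1 member called of 8 tested, where 3.43% of the 15182 genes tested were called higher. The call was lost on leaving out young replicate 1, 2 or 4 or aged replicate 1 or 4 (adjusted p between 0.0585 and 0.0712), while the fold change stayed between 0.92 and 1.31 over all 8 omissions. Genes of other cells rose in the same contrast, with 6 of 11 fibroblast genes and 1 of 8 endothelial genes higher; the endothelial receptor gene Tek was at 1.91, 0.762, 0.997 and 1.49 CPM in young and 5.67, 6.41, 14.6 and 5.40 CPM in aged RCAM libraries (2.60 ± 0.42, adjusted p = 0.00821). Summed over 12 genes each, fibroblast genes were at 1315 to 1482 CPM in young and 2051 to 4717 CPM in aged, and endothelial genes at 76.3 to 89.1 and 98.01 to 135.1 CPM. Their part in the Kit values was not tested.

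Fcer1a was at 0.423, 0.0602, 0.567 and 0.767 CPM in young and 0.663, 0.309, 0.378 and 0 CPM in aged RCAM libraries, Hdc at 1.78, 3.15, 7.47 and 4.38 against 2.35, 1.85, 2.22 and 4.64 CPM, and Gata2 at 1.10, 1.18, 0.587 and 0.393 against 0.321, 0.541, 0.378 and 1.42 CPM. All 3 overlapped between the ages, with adjusted p from 0.537 to 0.885. Ms4a2 had 0, 1, 14 and 0 counts in young and 14, 0, 0 and 0 in aged, and Tpsab1 had 15, 0, 0 and 0 against 1, 0, 8 and 0, and neither was tested. Of 10 further mast cell genes 1 was called, Hpgds, which was higher (0.40 ± 0.10, adjusted p = 0.0479). Of 14 granule and lipid mediator genes, 2 were lower, the histamine receptor gene Hrh1 (−0.54 ± 0.12, adjusted p = 0.0345) and the lipoxygenase gene Alox5 (−0.45 ± 0.11, adjusted p = 0.0484), where 1.38% of all genes were lower, and 0 of 14 IgE signalling genes were called.

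**Figure D3:**
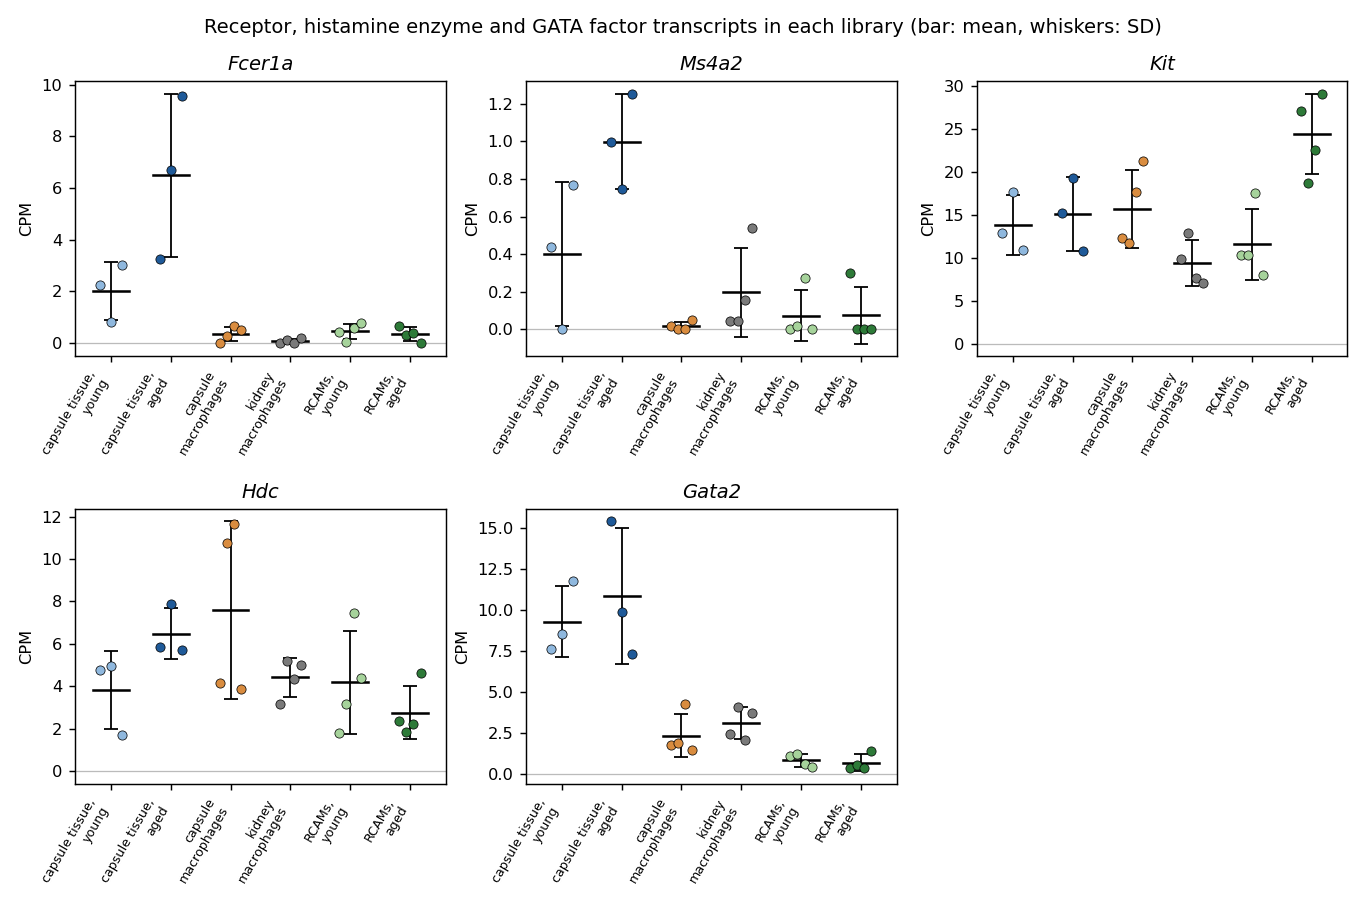
CPM of the IgE receptor chains, Kit, Hdc and Gata2 in each of the 22 libraries, by group, each point a library, with the mean and SD. Kit lies between 18.7 and 29.1 CPM in the aged RCAM libraries and between 8.04 and 17.5 CPM in the young ones, and Gata2 and Fcer1a are highest in capsule tissue.

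Whether the change with age itself differed between the RCAM libraries and capsule tissue was tested with an interaction term. None of the 10 members was called, against 5.05% of the 18856 genes tested. Kit had the only unadjusted p under 0.05 among the members (0.0136), with a difference of 1.09 ± 0.39 on the log2 scale (adjusted p = 0.111).

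Set against capsule tissue of the same age, the RCAM libraries were lower in Mcpt4, Gata2, Cma1 and Fcer1a at both ages, and in further members among the aged. Among the young, 4 of 9 members tested were lower, a share close to the 40.6% of the 17491 genes tested that were lower. Mcpt4 fell by 3.35 ± 0.71 on the log2 scale (adjusted p = 0.00265) and Gata2 by 3.23 ± 0.44 (adjusted p = 0.000216). On unscaled CPM the groups did not overlap for Mcpt4, Gata2 and Fcer1a, nor for 76.2% of all genes. Cma1 (−1.93 ± 0.77, adjusted p = 0.0476) and Fcer1a (−1.89 ± 0.76, adjusted p = 0.0499) were called too, but without young capsule replicate 1 or 3 or young RCAM replicate 3 only Mcpt4 and Gata2 were called. Tpsb2 (−1.91 ± 0.80, adjusted p = 0.0574) and Cpa3 (−2.30 ± 1.07, adjusted p = 0.0792) were not called, while limma-voom called both and RLE scaling called Tpsb2. Kit had 0.00 ± 0.29 (adjusted p = 0.990), Hdc 0.39 ± 0.53 (adjusted p = 0.530) and Ms4a2 −2.18 ± 1.49 (adjusted p = 0.210).

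Among the aged, 9 of 10 members were lower in the RCAM libraries, where 38.5% of the 17595 genes tested were. Of the 9, Tpsab1 (1, 0, 8 and 0 counts in aged RCAM libraries) and Ms4a2 (14, 0, 0 and 0 counts) passed the expression filter through capsule tissue alone, so their entry into this count depended on being high there. Mcpt4 fell by 5.23 ± 1.13, Fcer1a by 3.95 ± 0.90, Gata2 by 3.70 ± 0.55 and Cpa3 by 3.26 ± 0.74 (adjusted p = 0.00303, 0.00411, 0.000387 and 0.00405). Cma1 and Tpsb2 fell by 3.54 ± 1.09 and 3.37 ± 1.10 (adjusted p = 0.0176 and 0.0223), and Hdc (−0.92 ± 0.36, adjusted p = 0.0483) was near the threshold. Kit alone was higher, by 1.005 ± 0.237 (adjusted p = 0.00484). Without aged capsule replicate 3, the library with the most protease counts, the lower calls were limited to Cpa3, Fcer1a, Gata2 and Mcpt4, and Kit remained higher. Whether the library kit or the cells set these differences cannot be told apart. Fibroblast, adipocyte and endothelial genes were lower in all tested cases (11, 12 and 12 genes at each age) and all 15 macrophage genes were higher.

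**Figure D4:**
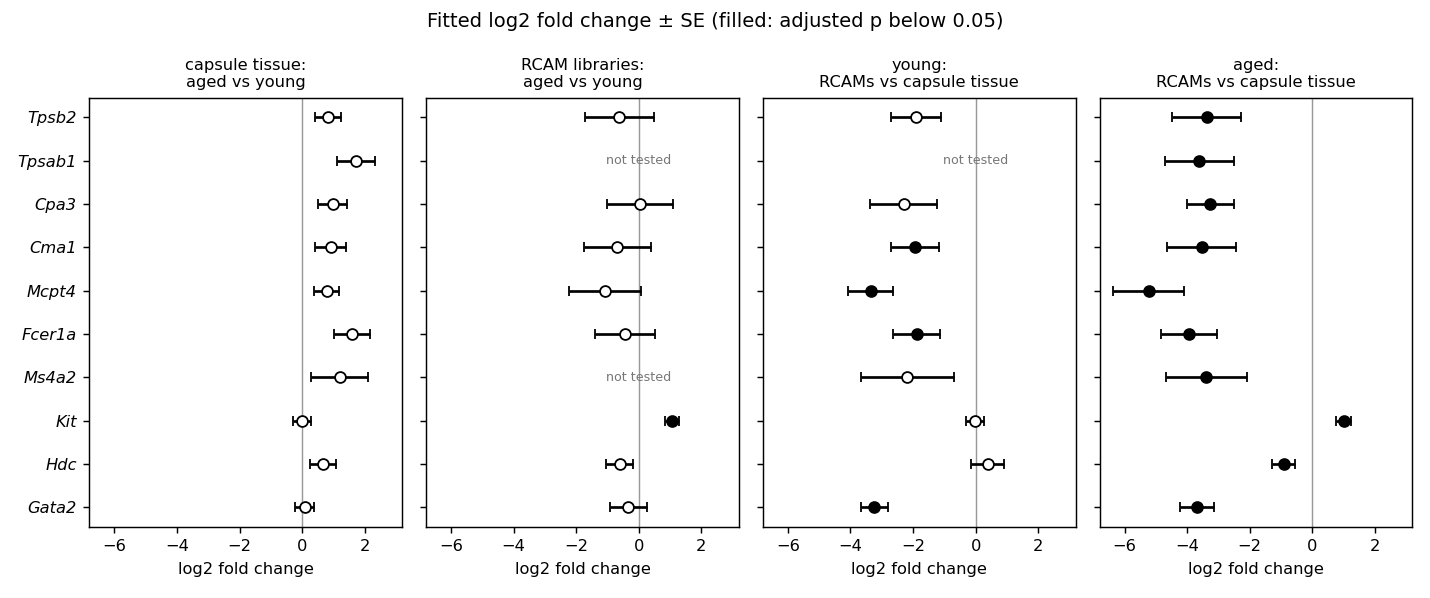
Fitted log2 fold change of each member with its SE in 4 comparisons; filled points have an adjusted p below 0.05, and genes under the expression filter are marked as not tested. No point is filled for capsule tissue with age, Kit alone for the RCAM libraries with age, and 4 and 10 for RCAM libraries against capsule tissue in the young and the aged.

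The proteases did not keep 1 proportion across the kinds of library. In the 15 libraries with at least 100 protease counts, the ratio of Mcpt4 to Cpa3 counts was 1.005, 1.55 and 1.13 in young and 1.17, 0.786 and 1.05 in aged capsule tissue. It was 0.226, 0.402 and 0.220 in capsule macrophages, 0.516, 0.517 and 0.546 in young and 0.412, 0.160 and 0.0515 in aged RCAM libraries. Among these 15, every capsule tissue library was above every sorted or RCAM library in this ratio, which was noticed in these data and not tested. Of the libraries below 100 protease counts, young RCAM replicate 2 went the other way, with 19 Mcpt4 counts and 1 Cpa3 count, and capsule macrophage replicate 1 had a ratio of 0.408. Tpsb2 made up 23.4 to 29.9% of the protease counts in capsule tissue and 35.9 to 37.9% in capsule macrophages, and Cma1 15.6 to 22.2% and 21.0 to 22.4%. Aged RCAM replicate 4 stood apart, with Cpa3 at 79.8% and Tpsb2 at 5.82% of its 292 protease counts.

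**Figure D5:**
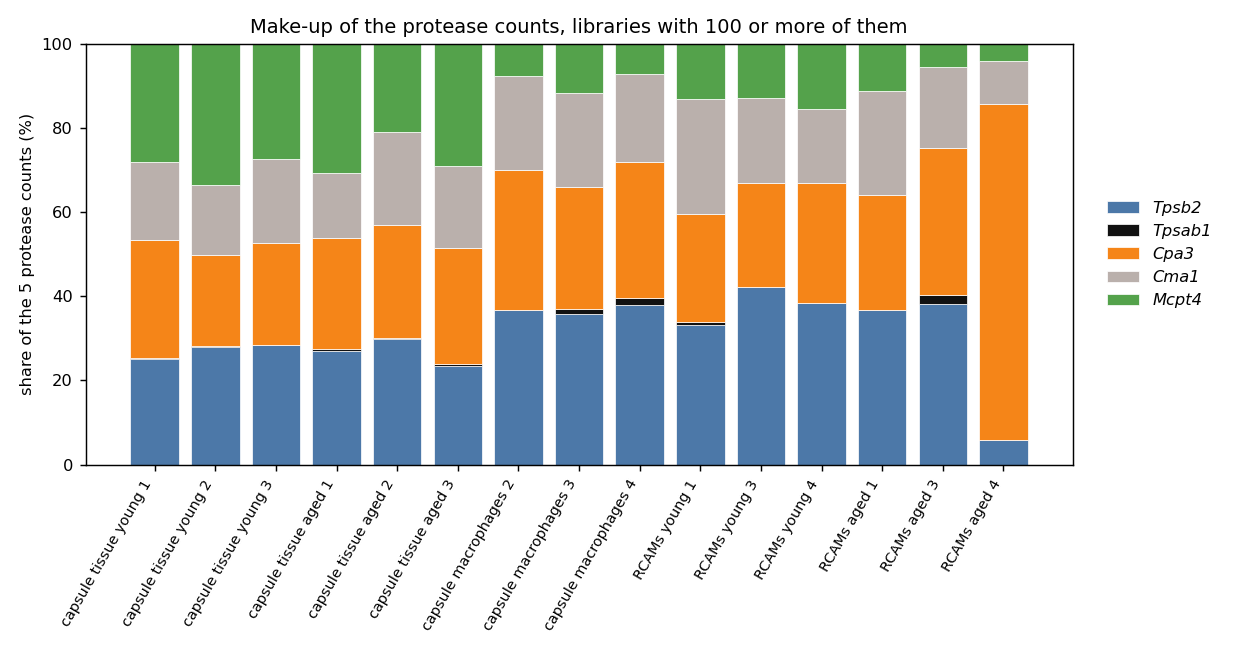
Share of each protease gene in the summed counts of the 5 proteases (percent, bars adding to 100), for the libraries with at least 100 such counts. Mcpt4 takes 21.0 to 33.5% in capsule tissue and 4.11 to 15.5% in the other libraries, and aged RCAM replicate 4 consists mostly of Cpa3.

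Across the 22 libraries the members split by how closely they followed the summed protease level, by Pearson's r of log2(CPM + 0.1), given as a description because the libraries share groups and depth. Fcer1a had r = 0.852, ahead of Gata2 at 0.409, Kit at 0.334 and Hdc at 0.227. Within the 6 capsule tissue libraries Fcer1a had r = 0.978, Hdc 0.119, Gata2 0.0241 and Kit −0.431. Ms4a2, the other IgE receptor chain, had a mean under 1 CPM in every group and was left out. With Tpsb2, Cpa3, Cma1 and Mcpt4 singly, Ms4a2 had r from 0.389 to 0.526 over the 22 libraries. Within capsule tissue these values were 0.905 to 0.949. The 8 non-member genes most like the protease sum over the 22 libraries were Spon1, Car11, Tmem100, Sema6c, Capn1, Mrgprb1, Thbd and Mxra7, with r from 0.881 to 0.902. Of these, Mrgprb1 encodes a mast cell receptor of the Mrgpr family. None of the 8 was among the 8 most like it in capsule tissue alone, which were led by Cbfb (r = 0.998) and Fcgr4 (r = 0.995).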

How the data were processed

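The 22 libraries were measured by single-end RNA-seq, and the deposited tables give raw counts per gene by the authors, with GRCm38 named in the submitters' processing notes; no label or header names the aligner, the counter or its strand setting. Counts were scaled to CPM of each library's unscaled total of all genes, and to CPM per kb of exon for comparisons between genes. Each comparison was fitted in edgeR 4.0.16 (R 4.3.3) on the groups compared, with TMM scaling, filterByExpr, the quasi-likelihood test (2-sided) and Benjamini-Hochberg adjustment over all genes tested; a call is an adjusted p under 0.05. The fitting script was tested on simulated counts. The members and all other lists were chosen with earlier results of these data known. All 10 members are named in every comparison; other lists are given by counts, median and up to 4 members with the smallest p in capsule tissue with age, and other listed genes named were chosen after their values were seen. Alternatives were RLE scaling, DESeq2 1.42.0, limma-voom (limma 3.58.1), no expression filter, scaling without immunoglobulin, mitochondrial and haemoglobin genes, a replicate block, all 6 groups in 1 fit, and leaving out each replicate. The authors' RPKM columns were not used.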

Additional observations from a re-analysis of the deposited data

Results flagged for a closer look

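In groups of 4 libraries, a library was singled out where its gap to the nearest other made up nearly the whole range of the group. Chance does this in about 1 in 20 groups where values are independent and normally distributed. That rate need not hold here, with skewed CPM, many values of 0 and genes sharing the same libraries. In all, 37 groups of 4 were examined over the 10 genes and 7 stood out. This is a description, and whether it exceeds chance was not tested. In the RCAM libraries, young replicate 1 was high for Cma1 at 9.665 CPM (0.963 to 2.42 CPM in the others) and for Tpsab1 at 0.2756 CPM (0 in the others). Aged RCAM replicate 1 was high for Mcpt4 at 3.571 CPM (0 to 0.445 CPM in the others) and for Ms4a2 at 0.2993 CPM (0 in the others), young replicate 3 for Ms4a2 at 0.2738 CPM (0 to 0.0201 CPM), and aged replicate 3 for Tpsab1 at 0.1779 CPM (0 to 0.0214 CPM). The Tpsab1 and Ms4a2 values rest on 8 to 15 counts. Capsule macrophage replicate 3 was high for Gata2 at 4.24 CPM (1.45 to 1.85 CPM in the others), and was also the highest of its group for all 5 proteases and for Ccr3.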

How the results depend on the processing

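Of the members' fold changes under the alternatives, 584 kept their call or lack of one, 52 lost a call and 12 gained one, and no called value changed sign. In capsule tissue with age, 1 member was called by DESeq2 and 1 with the replicate block, and 0 in every omission of a library. Genes called there numbered 1811 with DESeq2, 25 with limma-voom, 1095 without the expression filter, 2196 with the replicate block, 3097 with all 6 groups in 1 fit, 487 without the libraries with adrenal transcripts, and 0 to 387 when each replicate was left out. Limma-voom called 2 members between the macrophages, and leaving out replicates gave 5 to 7. In RCAM libraries with age, 0 members were called with the replicate block (Kit, adjusted p = 0.0691) and 0 to 1 without each replicate; genes called numbered 1550 with DESeq2, 336 with the replicate block and 451 to 629 without each replicate. In RCAM libraries against capsule tissue, 2 members were called in the young with all 6 groups in 1 fit, 5 with RLE scaling, 6 with limma-voom and with the replicate block (which added Tpsb2 and Cpa3, adjusted p = 0.0248 and 0.0433) and 2 to 5 without each replicate, and 5 to 9 in the aged. The cause was not tested. RLE in place of TMM scaling moved the median of all genes from −0.14 to −0.25 in the young and changed no member's direction there. Genes shared between the lists most like the proteases numbered 0 of 8. Replicate numbers do not pair the samples by the labels: deviations of same-numbered libraries correlated at 0.0986 to 0.353 in capsule tissue (unlike numbers −0.306 to 0.0382, so each library correlated best with its own number, a hint from the data) and at −0.0478 to 0.0357 and −0.108 to −0.0261 in the macrophages and RCAM libraries. The block added Mcpt4 in capsule tissue with age (0.81, adjusted p = 0.0446). Precision is limited by 3 or 4 libraries a group and, for Tpsab1 and Ms4a2, by under 50 counts a library.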
